A study of Mus musculus with 6 samples.

Results

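Integrins are the main receptors by which a chondrocyte holds on to its matrix, and 10 of their subunit genes were followed here between embryonic and adult mouse cartilage. The 10 genes were *Itga1*, *Itga2*, *Itga5*, *Itga6*, *Itga10*, *Itga11*, *Itgav*, *Itgb1*, *Itgb3* and *Itgb5*, which encode collagen, fibronectin or laminin binding subunits. They were picked by name, with earlier results of these data known. Other subunits that bind such proteins, such as the laminin receptor chain *Itga3*, are described apart from them. All 10 were found among the 22032 genes of the deposited matrix. RNA-seq was available for 3 embryonic and 3 adult samples. The embryonic cells came from E16.5 mouse embryos, although the labels give that stage as 16.5 weeks, and the adult cells came from 2 month old male B6 mice, and all were from the knee. At both stages the cells were sorted as LIN-ALP-BMPR1B+, that is, without blood, endothelial or erythroid surface markers, without alkaline phosphatase, and with a bone morphogenetic protein receptor that the study used to enrich chondrocytes. No genetic change or treatment was applied to either group. The sex of the embryos and the number of animals behind each sample are not given in the sources used here, so the p-values measure the spread between these samples. Stage and any difference in sex or preparation between the groups cannot be told apart.

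An integrin is a pair of 1 alpha and 1 beta chain that spans the membrane. The alpha chain largely sets which matrix protein is bound, and the beta chain couples the receptor through talin and kindlin to the actin cytoskeleton. Most alpha chains considered here pair with the beta 1 chain encoded by *Itgb1*. In cartilage, integrin alpha 10 beta 1 is known as a receptor for type II collagen, alpha 11 beta 1 as a receptor for fibrillar collagens in mesenchymal cells, alpha 5 beta 1 as the classical fibronectin receptor, and alpha 6 beta 1 as a laminin receptor. The alpha v chain pairs with several beta chains, the beta 3 and beta 5 chains among them, and binds vitronectin and other proteins with an RGD motif.

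The fibronectin receptor gene *Itga5*, the laminin receptor gene *Itga6*, the collagen receptor gene *Itga11* and the shared beta chain gene *Itgb1* were lower in the adult samples, whereas the type II collagen receptor gene *Itga10* was higher. Transcript levels are given as TPM, the share of a gene in all transcripts after correction for its length. The depth of sequencing is lost in TPM, and the precision of a value is therefore that of 3 samples per stage. In bulk RNA, fewer cells of a kind and less RNA per cell cannot be told apart. The stages were compared with limma on log2(TPM + 1) over the 13125 genes whose mean reached 1 TPM, and a gene was called at a Benjamini-Hochberg adjusted p under 0.05. On this scale the change of a low gene is understated. All 10 integrin genes passed the filter on low values, with 1 called as higher and 4 as lower in adult cells while 5 were not called. Over all tested genes 45.3% were called in either direction, 23.9% as higher and 21.4% as lower, so 5 of 10 lies near the background. The values of the 2 stages did not overlap in 6 of the 10 genes, against 56.5% of all tested genes. The median log2 difference of the 10 genes was -0.42 and that of all tested genes 0.16. That median over all genes was 0.03 after scaling by the median of ratios, so a difference as small as 0.16 depends on the scaling. The differences of all 10 integrin genes were lower under that scaling as well, for example 1.01 instead of 1.15 for *Itga10* and -1.36 instead of -1.21 for *Itga5*.

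Upstream sequences are given for *Itga10*, which was called as higher, and for *Itga11* and *Itga5*, which were called as lower. Each holds the 250 bases before the RefSeq start on GRCm38.p6, read 5′ to 3′ on the strand of the gene. Of the 10 genes 8 were matched among the RefSeq upstream sequences. *Itga6*, which had the largest fall of the 10 genes (log2 difference -1.60), and *Itgb3* were not matched. Capitals mark a match to any of 5 motifs searched on both strands, namely the SP1 GC box (GGGCGG), AP-1 (TGANTCA), TEAD (GGAATG), SOX (AACAAT) and RUNX (TGTGGT).
Itga10, chr3:96645334-96645583, plus strand: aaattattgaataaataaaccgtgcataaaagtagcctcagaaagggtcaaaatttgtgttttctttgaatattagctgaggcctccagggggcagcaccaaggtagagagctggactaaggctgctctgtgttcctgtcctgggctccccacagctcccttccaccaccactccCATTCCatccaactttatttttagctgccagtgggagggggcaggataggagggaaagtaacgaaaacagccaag
Itga11, chr9:62677605-62677854, plus strand: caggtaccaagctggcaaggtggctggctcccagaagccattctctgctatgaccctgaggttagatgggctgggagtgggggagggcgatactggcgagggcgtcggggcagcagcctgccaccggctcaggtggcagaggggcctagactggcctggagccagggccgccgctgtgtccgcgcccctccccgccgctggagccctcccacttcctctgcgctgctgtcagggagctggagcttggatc
Itga5, chr15:103366792-103367041, minus strand: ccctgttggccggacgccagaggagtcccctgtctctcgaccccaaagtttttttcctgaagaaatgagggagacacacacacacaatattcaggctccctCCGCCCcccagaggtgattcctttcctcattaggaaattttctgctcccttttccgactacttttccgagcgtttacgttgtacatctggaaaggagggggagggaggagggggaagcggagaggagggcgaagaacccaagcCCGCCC
The *Itga10* sequence had a TEAD match that began 75 bases before the start, its reverse complement being written there, and 48% of its bases were G or C. The *Itga11* sequence had a GC content of 68.4% and none of the 5 motifs, and the *Itga5* sequence had a GC content of 55.6% and 2 GC boxes, at 149 and 6 bases before the start. The median GC content of all 32851 upstream sequences was 52.4%. A GC box stood in 3 of the 8 integrin sequences (*Itga5*, *Itgb1* and *Itgb5*) and in 32.7% of all of them, while a TEAD match stood in 12.6%, an AP-1 match in 6.75%, a SOX match in 9.42% and a RUNX match in 14% of all. The *Itgb1* sequence also held a TEAD match, 7 bases before the start. No matches overlapped one another, and a match is a description of the letters only.

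**Figure D1:**
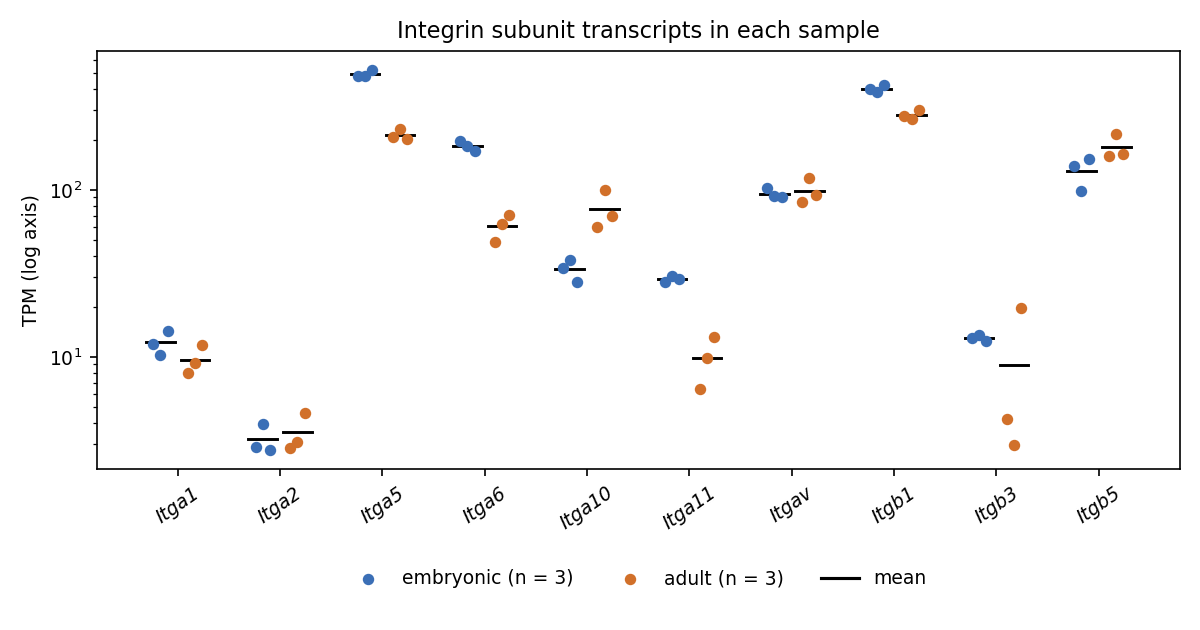
Level of each integrin gene in TPM on a log axis, with 1 point per sample (blue, 3 embryonic; orange, 3 adult) and a black line at the mean of each stage. *Itga10* lies at 28.1 to 37.9 TPM in the embryonic and at 59.9 to 100 TPM in the adult replicates, while *Itga5*, *Itga6*, *Itga11* and *Itgb1* lie lower in all adult samples.

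Among the collagen receptors, *Itga10* (ENSMUSG00000090210) was found at 34, 37.9 and 28.1 TPM in the embryonic replicates and at 59.9, 100 and 69.7 TPM in the adult replicates. Every adult sample was above every embryonic sample, and adult replicate 2 was the highest. The mean rose from 33.4 ± 4.89 (SD, n = 3) to 76.5 ± 20.9 TPM, a ratio of 2.3, and the log2 difference was 1.15 with a standard error of 0.225 (limma adjusted p = 0.00344). The gene lies on chromosome 3 of GRCm38 at 96645584 to 96664519 on the plus strand. Of its exonic bases 1739 are shared with *Gm42957*, a gene model on the same strand that is not among the listed genes, and 32.01% of the 50-base stretches of its longest transcript also occur in other gene models. How reads from that shared stretch were assigned is not given in the sources used here, so the level of *Itga10* is less certain than that of the other integrin genes.

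*Itga11* (ENSMUSG00000032243; chromosome 9, 62677826 to 62783982, plus strand) moved the other way. It was measured at 28.1, 30.5 and 29.3 TPM in the embryonic replicates and at 6.39, 9.81 and 13.2 TPM in the adult replicates. The embryonic samples lay close together, and all adult samples were below them. The mean fell from 29.3 ± 1.23 to 9.81 ± 3.42 TPM, 2.99 times lower, with a log2 difference of -1.54 (standard error 0.297, limma adjusted p = 0.0033). Of 6 tendon and fibroblast markers 2 were called as lower, 1 as higher and 3 were not called. Their summed level was 581 to 894 TPM in the embryonic and 440 to 672 TPM in the adult replicates, with none at 0 in all samples of a stage. The 2 lower ones were *Scx*, a tendon transcription factor, which was at 44.2, 41.3 and 32.6 TPM against 0, 4.59 and 0 TPM, and *Tnmd*, encoding the tendon protein tenomodulin, which was at 262, 108 and 162 TPM against 0, 2.11 and 0.703 TPM. The higher one was *Thbs4*, encoding thrombospondin 4 (272, 185 and 179 against 340, 242 and 394 TPM, limma adjusted p = 0.0467). Its values overlapped between the stages. The call of *Thbs4* was lost under the median of ratios (limma adjusted p = 0.107) and in fits with 1 sample left out (highest 0.156). The part of such cells in the level of *Itga11* was not tested.

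The other collagen binding chains were less abundant. *Itga1* (ENSMUSG00000042284; chromosome 13, 114953096 to 115101964, minus strand), whose product binds type IV and other collagens, was measured at 12, 10.3 and 14.3 TPM in the embryonic and at 8.02, 9.13 and 11.7 TPM in the adult replicates. The stages overlapped, and the log2 difference of -0.32 had a 95% confidence interval of -1.01 to 0.38 (limma adjusted p = 0.422). *Itga2* (ENSMUSG00000015533; chromosome 13, 114833081 to 114932100, minus strand), the neighbour of *Itga1* on the chromosome, was the lowest of the 10 genes at 2.88, 3.97 and 2.77 TPM against 2.83, 3.1 and 4.62 TPM. Its log2 difference was 0.09 with an interval of -0.83 to 1.02, and the sign turned under quantile normalization and under the median of ratios.

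*Itga5* (ENSMUSG00000000555; chromosome 15, 103344286 to 103366763, minus strand), the fibronectin receptor chain, was the most abundant of the 10 genes in the embryonic samples, at 484, 478 and 524 TPM. In the adult samples it was found at 208, 231 and 201 TPM. The stages were far apart compared with the spread within either, and the mean fell from 495 ± 24.9 to 214 ± 15.7 TPM. The log2 difference was -1.21 (standard error 0.115, limma adjusted p = 7.55e-05), which is 2.32 times lower.

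*Itga6* (ENSMUSG00000027111; chromosome 2, 71745616 to 71858416, plus strand), the laminin receptor chain, fell by about as much as *Itga11*. It was measured at 197, 183 and 171 TPM in the embryonic replicates and at 48.8, 62.8 and 70.4 TPM in the adult replicates, with no overlap. The mean fell from 184 ± 13.3 to 60.7 ± 10.9 TPM, with a log2 difference of -1.60 (standard error 0.165, limma adjusted p = 0.000117). Its other known partner, *Itgb4*, was low at 1.45, 2.65 and 5.17 TPM in the embryonic and 0.203, 1.38 and 0.288 TPM in the adult replicates.

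*Itgav* (ENSMUSG00000027087; chromosome 2, 83724397 to 83806916, plus strand) showed no difference past the threshold. It was measured at 102, 92 and 90.7 TPM in the embryonic and at 84.7, 117 and 93.4 TPM in the adult replicates. The adult values lay on both sides of the embryonic ones, and the log2 difference of 0.04 had an interval of -0.32 to 0.40 (limma adjusted p = 0.85). That sign turned under the median of ratios, and 634 exonic bases of the gene overlap a gene model on the opposite strand, *Gm13684*.

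Of the beta chains, *Itgb1* (ENSMUSG00000025809; chromosome 8, 128685654 to 128733200, plus strand) was found at 404, 383 and 423 TPM in the embryonic and at 278, 265 and 302 TPM in the adult replicates. All adult samples were below all embryonic samples, and the mean fell from 403 ± 20.3 to 282 ± 18.6 TPM. The log2 difference of -0.52 (standard error 0.114, limma adjusted p = 0.00628) was smaller than those of *Itga5*, *Itga6* and *Itga11*.

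*Itgb5* (ENSMUSG00000022817; chromosome 16, 33829665 to 33949338, plus strand), a partner of the alpha v chain, was measured at 138, 98.3 and 154 TPM in the embryonic and at 160, 216 and 165 TPM in the adult replicates. The values of the stages did not overlap, but the gap between them was small, from 154 to 160 TPM. The log2 difference was 0.48 with an interval of 0.03 to 0.93 and was not called (limma adjusted p = 0.0761). The call depended on the scaling, with an adjusted p of 0.037 under quantile normalization, 0.0415 when the 20 highest genes were left out and 0.178 under the median of ratios.

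*Itgb3* (ENSMUSG00000020689; chromosome 11, 104608000 to 104670476, plus strand), the other partner of the alpha v chain and a beta chain known from osteoclasts and platelets, was divided within the adult samples. It was measured at 12.9, 13.5 and 12.5 TPM in the embryonic replicates and at 4.26, 2.96 and 19.6 TPM in the adult replicates. Adult replicate 3 was above all embryonic samples and the other adult samples were below them. The log2 difference was -0.89 with an interval of -2.20 to 0.42 (limma adjusted p = 0.236). Without adult replicate 3 it was -1.61 and was called as lower (limma adjusted p = 0.00756). The same sample had the highest summed level of 6 osteoclast markers, 560 TPM against 294 and 326 TPM in the other adult samples and 85.7 to 107 TPM in the embryonic replicates. *Ctsk*, encoding the protease cathepsin K, made up most of that sum, at 270, 302 and 530 TPM in the adult and 80.1 to 102 TPM in the embryonic samples. *Acp5*, encoding an acid phosphatase, was at 14.9, 18.7 and 18.9 TPM, and *Mmp9*, encoding a gelatinase, at 6.63, 3.44 and 1.41 TPM in the adult samples. Of the other markers *Atp6v0d2*, a proton pump subunit, was at 0.799, 1.93 and 9.66 TPM in the adult replicates, whereas *Calcr*, the calcitonin receptor, was at 0 in all of them and *Ocstamp*, a cell fusion protein, was at 0 in adult replicate 3. The part of such cells in the *Itgb3* value was not tested.

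**Figure D2:**
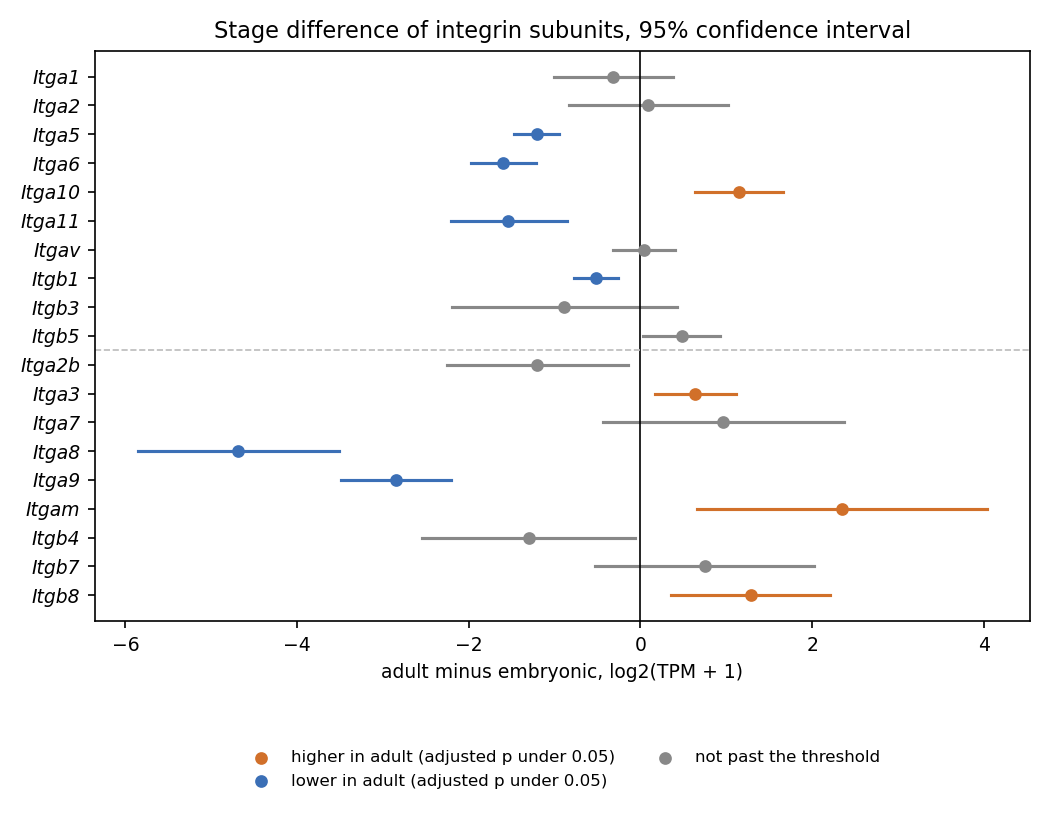
Adult minus embryonic difference on the log2(TPM + 1) scale (x axis) for the 10 integrin genes above the dashed line and the 9 tested other subunits below it, with points for the estimate and bars for its 95% confidence interval. Orange marks genes called as higher and blue genes called as lower in the adult samples, and grey those not past the threshold, where *Itgb3* has the widest interval of the 10 genes, from -2.20 to 0.42.

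These differences changed the order of the genes. In the embryonic samples *Itga5* had the highest level, followed by *Itgb1*, *Itga6* and *Itgb5*. The values of *Itgb5* overlapped those of *Itgav*, the next gene, and those of *Itga10* overlapped those of *Itga11*, as did those of *Itgb3* and *Itga1* before *Itga2* at the end. In the adult samples *Itgb1* was above *Itga5*, whose values overlapped those of *Itgb5*. Then came *Itgav*, *Itga10* and *Itga6*, each of which overlapped its neighbour, and at the end *Itga11*, *Itga1*, *Itgb3* and *Itga2*, which likewise overlapped. Overlap here compares ranges over the samples of a stage, not values within a sample. Within each adult sample *Itga5* was above *Itgb5* and *Itgav* above *Itga10*, and within each embryonic sample *Itgb5* was above *Itgav*.

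The 7 alpha genes added up to 859, 836 and 860 TPM in the embryonic replicates and to 419, 533 and 464 TPM in the adult replicates, with means of 852 ± 13.6 and 472 ± 57.2 TPM. With 3 samples against 3 an exact two-sided permutation test cannot go below p = 0.1, which is what this sum gave. The share of each gene in the sum, unlike the sum itself, does not depend on the scaling between samples. *Itga5* held 58.1% ± 2.47 of that sum in the embryonic and 45.5% ± 3.7 in the adult samples, and *Itga6* held 21.6% ± 1.58 and 12.9% ± 1.99. In the opposite direction, *Itgav* went from 11.1% ± 0.646 to 20.8% ± 1.01 and *Itga10* from 3.92% ± 0.628 to 16% ± 2.4. The level of *Itgav* itself was not called (log2 difference 0.04), while the sum was lower in all adult samples. *Itga11* held 3.44% ± 0.196 and 2.07% ± 0.693.

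**Figure D3:**
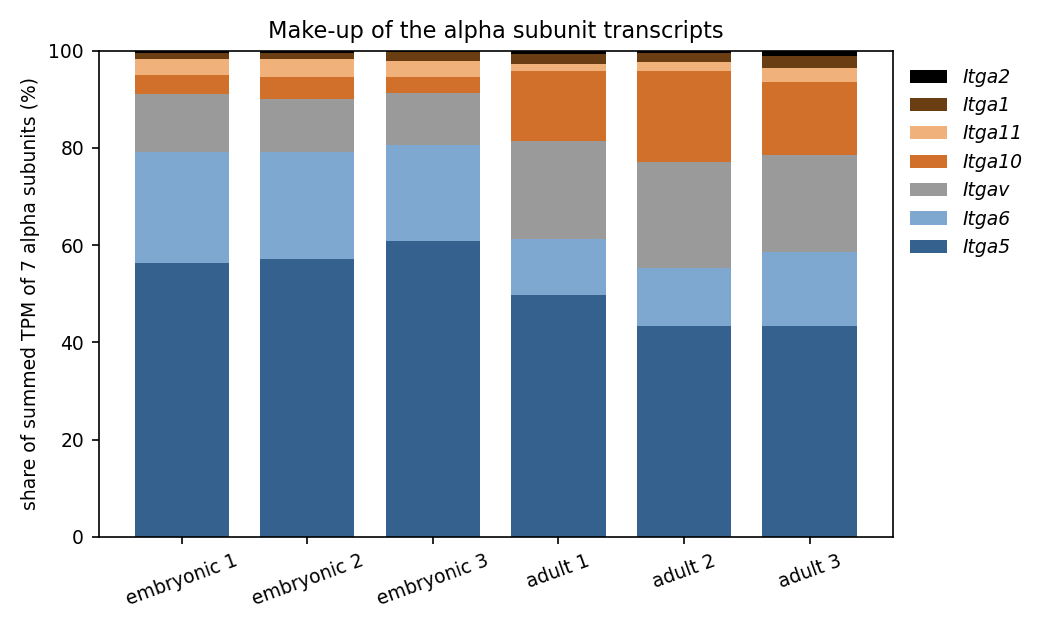
Share of each of 7 alpha subunit genes in their summed TPM (y axis, percent), with 1 stacked bar per sample. *Itga5* takes 56.3% to 60.9% of the embryonic bars and 43.3% to 49.7% of the adult bars, and *Itga10* 3.27% to 4.53% and 14.3% to 18.8%.

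The sum of the 7 alpha genes leaves out other alpha chains, among them *Itga3*, *Itga8* and *Itga9*. The chains with an inserted I domain, which form the collagen receptors, are *Itga1*, *Itga2*, *Itga10* and *Itga11*. They made up 8.96%, 9.89% and 8.67% of the sum of the 7 alpha genes in the embryonic replicates and 18.4%, 22.9% and 21.4% in the adult samples. The stages did not overlap (exact permutation p = 0.1, the smallest possible). In TPM, however, their sum was 77, 82.7 and 74.5 against 77.2, 122 and 99.3, so that the stages overlapped in level (exact permutation p = 0.2). Within these collagen receptor chains *Itga10* held 44.2%, 45.8% and 37.8% in the embryonic and 77.7%, 81.9% and 70.2% in the adult samples. *Itga11* held 37.6% ± 1.53 and 9.88% ± 2.98 in the same order. The embryonic cells thus had *Itga10* and *Itga11* at near levels, and the adult cells had mostly *Itga10*.

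Set against *Itgb1* in the same sample, the alpha chains diverged in both directions. The log2 ratio of *Itga10* to *Itgb1* was -3.57 ± 0.28 in the embryonic and -1.90 ± 0.43 in the adult samples, a difference of 1.67. That of *Itga5* went from 0.29 ± 0.03 to -0.40 ± 0.19, so *Itga5* was above *Itgb1* in all embryonic samples and below it in all adult samples. The ratios of *Itga6* and *Itga11* were lower in the adult samples by differences of -1.08 and -1.02, and those of *Itga2* and *Itgav* were higher by 0.61 and 0.56. In these 6 genes the stages did not overlap (exact permutation p = 0.1, adjusted p = 0.117 over 7 ratios), while the ratio of *Itga1* differed by 0.20 and overlapped (exact permutation p = 0.2, adjusted p = 0.2). The levels of *Itga2* and *Itgav* themselves were not called, with log2 differences of 0.09 and 0.04, while that of *Itgb1*, the divisor, was -0.52. Among the 3 beta chains *Itgb1* held 74% ± 3.01 of the transcripts in the embryonic and 59.9% ± 4.47 in the adult samples, and *Itgb5* held 23.6% ± 3.32 and 38.2% ± 5.65.

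Of 17 other integrin subunit genes, 9 were tested, with 3 called as higher and 2 as lower in adult cells. These 5 of 9 genes, 55.6%, lie near the 45.3% called among all tested genes. Their median log2 difference was 0.64. The falls were the largest of any integrin gene tested. *Itga8*, whose product with beta 1 binds nephronectin, was found at 103, 78.2 and 70.4 TPM in the embryonic and at 7.11, 1.18 and 0.943 TPM in the adult replicates (log2 difference -4.69, standard error 0.518, limma adjusted p = 0.000169). *Itga9*, a receptor chain for tenascin C, was measured at 76.9, 59.3 and 60.2 TPM against 10.8, 5.41 and 9.19 TPM (log2 difference -2.85, standard error 0.28, limma adjusted p = 8.92e-05). Both embryonic levels were above those of *Itga10* and *Itga11*, and both adult levels were below that of *Itga10*.

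The 3 rises were less secure. *Itga3*, encoding another laminin receptor chain, rose by 0.64 (limma adjusted p = 0.0326), which was not past the threshold after quantile normalization (0.0563) or the median of ratios (0.0851). *Itgb8*, whose product with alpha v is known for activating latent TGF-beta, was at 2.3, 1.41 and 2.17 TPM against 4.79, 6.04 and 7.99 TPM and rose by 1.29 (limma adjusted p = 0.0303). *Itgam*, a leukocyte chain, was at 0.399, 0.573 and 1.04 TPM against 18.2, 1.37 and 12.1 TPM (log2 difference 2.35, limma adjusted p = 0.0308). With 1 sample left out, *Itga3* was no longer called without embryonic replicate 1 or 3 or adult replicate 2 (highest adjusted p = 0.108), *Itgb8* without any sample except adult replicate 1 (0.088) and *Itgam* without any except adult replicate 2 (0.102). *Itgb2*, the beta chain that pairs with *Itgam*, was at 1.55, 0.134 and 0.999 TPM in the adult replicates and was too low to be tested. Summed over 8 leukocyte markers, *Itgam* included, the level was 5.26 to 13.9 TPM in the embryonic and 21 to 61.8 TPM in the adult replicates, with *Cd3e* at 0 in all samples and *Ptprc*, encoding CD45, at 2.29, 0 and 1.03 TPM in the adult replicates. *Cd68* made up most of the adult sums, at 33.3, 17.2 and 27.5 TPM. Of the 8 markers 5 were too low to be tested, 2 were called as higher (*Cd68* and *Itgam*) and 1 was not called. The part of leukocytes in the *Itgam* value was not tested. The remaining tested subunits were not called, with log2 differences of -1.20 for *Itga2b*, 0.96 for *Itga7*, -1.30 for *Itgb4* and 0.75 for *Itgb7*. The call of *Itga2b* depended on the setting. It was called as lower under quantile normalization (limma adjusted p = 0.0395), the median of ratios (0.0463) and without embryonic replicate 1 (0.0402), but not without the 20 highest genes (0.0773).

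The chondrocyte identity of both stages was checked on 8 markers, which summed to 21533 to 23096 TPM in the embryonic and 8846 to 11850 TPM in the adult replicates, with none at 0. *Col2a1* made up most of that sum in the embryonic samples, and the list was divided. *Sox9*, the transcription factor of chondrocytes (452, 392 and 465 against 589, 901 and 656 TPM), and *Comp*, a cartilage matrix protein, were called as higher. *Acan*, encoding aggrecan, was not called. The 5 markers called as lower were *Col2a1* (log2 difference -1.73), *Hapln1* (-0.72), *Col11a2* (-2.66), *Col9a1* (-5.48) and *Matn3* (-6.05). The mean of *Matn3* was 201 TPM in the embryonic and 2.2 TPM in the adult samples, and that of *Col9a1* was 1931 and 44.8 TPM. Summed markers of osteoblasts were higher in the adult samples (30.5 to 63.2 against 287 to 433 TPM), mostly through *Ibsp* at 316, 235 and 308 TPM. Of the 6 osteoblast markers 3 were called as higher, 2 were not called and 1, *Dmp1*, was called as lower (10.6, 16.3 and 10.1 against 0.0611, 0.0633 and 3.51 TPM, limma adjusted p = 0.00495). Besides *Ibsp*, the higher ones were *Bglap*, at 0 in all embryonic and 26.8, 15.8 and 83.9 TPM in the adult replicates, and *Alpl*. *Alpl*, an alkaline phosphatase gene, was at 15.4, 14.4 and 17.9 against 38.6, 32.7 and 36 TPM (limma adjusted p = 0.00292), although the cells were sorted as without alkaline phosphatase. The summed markers of muscle (48.1 to 62.1 against 4.25 to 11.6 TPM) and of pericytes and smooth muscle (224 to 243 against 120 to 154 TPM) were lower. *Des* made up most of the embryonic muscle sum (49.3, 50.6 and 46 against 1.11, 0.924 and 0.739 TPM). Of the 4 tested muscle markers *Des* alone was called, as lower. *Cspg4* made up most of the pericyte sum (205, 178 and 179 against 145, 112 and 117 TPM), and all 4 tested markers of that list were called as lower. The sums of endothelial (10.9 to 34.1 against 5.12 to 13.9 TPM), platelet and erythroid (14.3 to 117 against 7.35 to 49.1 TPM) and keratinocyte markers (5.53 to 11 against 2.58 to 6.68 TPM) overlapped. Of the 3 tested endothelial markers 2 were not called and 1, *Tek*, was called as lower. It was at 9.21, 9.24 and 19 against 0.121, 0.792 and 0.889 TPM (limma adjusted p = 0.000976). No tested marker of the platelet and erythroid or keratinocyte lists was called. The part of all these other cell types in the integrin levels was not tested.

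Among the matrix proteins that integrins bind, many more fell than rose. Of 38 ligand genes 36 were tested, with 8 called as higher and 24 as lower in adult cells and a median log2 difference of -1.34. The share called was 88.9%, against 45.3% of all tested genes, of which 23.9% were higher and 21.4% lower. The ligands of *Itga5* and *Itga6* differed from each other. *Fn1*, encoding fibronectin, was measured at 2068, 1697 and 2071 TPM in the embryonic and at 10747, 11394 and 10867 TPM in the adult replicates, 5.66 times higher (log2 difference 2.50, standard error 0.136, limma adjusted p = 3.37e-06). Its receptor chain *Itga5* was thus lower where *Fn1* was higher. Of the laminin chains 10 were tested, of which 7 were lower and 2 higher, and the largest fall was that of *Lamb1* (716, 583 and 645 against 28.9, 22.2 and 15.5 TPM; log2 difference -4.84, limma adjusted p = 1.13e-06). *Itga6* and most laminin genes were therefore lower in the same samples.

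Of 12 collagen chains, all of them tested, 9 were lower and 1 higher. *Col2a1*, encoding the type II collagen that integrin alpha 10 beta 1 binds, was found at 14663, 14154 and 15251 TPM against 7084, 3166 and 3869 TPM (log2 difference -1.73, limma adjusted p = 0.00107), so *Itga10* was higher where *Col2a1* was lower. *Col1a1*, encoding type I collagen, was at 5555, 4862 and 5971 TPM against 170, 603 and 637 TPM (log2 difference -3.75, limma adjusted p = 0.000221), in the same direction as *Itga11*. *Col9a1*, a fibril-associated cartilage collagen, fell by 5.48. The other large changes were the falls of *Postn*, encoding periostin (-6.44), and of *Tnc*, the tenascin C bound by the alpha 9 chain (-4.38, limma adjusted p = 0.00041), and the rises of *Ibsp*, encoding bone sialoprotein (5.58), *Mfge8*, an RGD protein bound by alpha v integrins (2.88), and *Ccn2*, a matricellular protein (2.52). *Ibsp* is also an osteoblast marker, and its embryonic values of 0.148, 29.6 and 5.07 TPM were widely spread. With no filter on low genes, *Fn1* and *Col2a1* were not past the threshold (adjusted p of 0.0633 and 0.569), although their differences were the same.

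**Figure D4:**
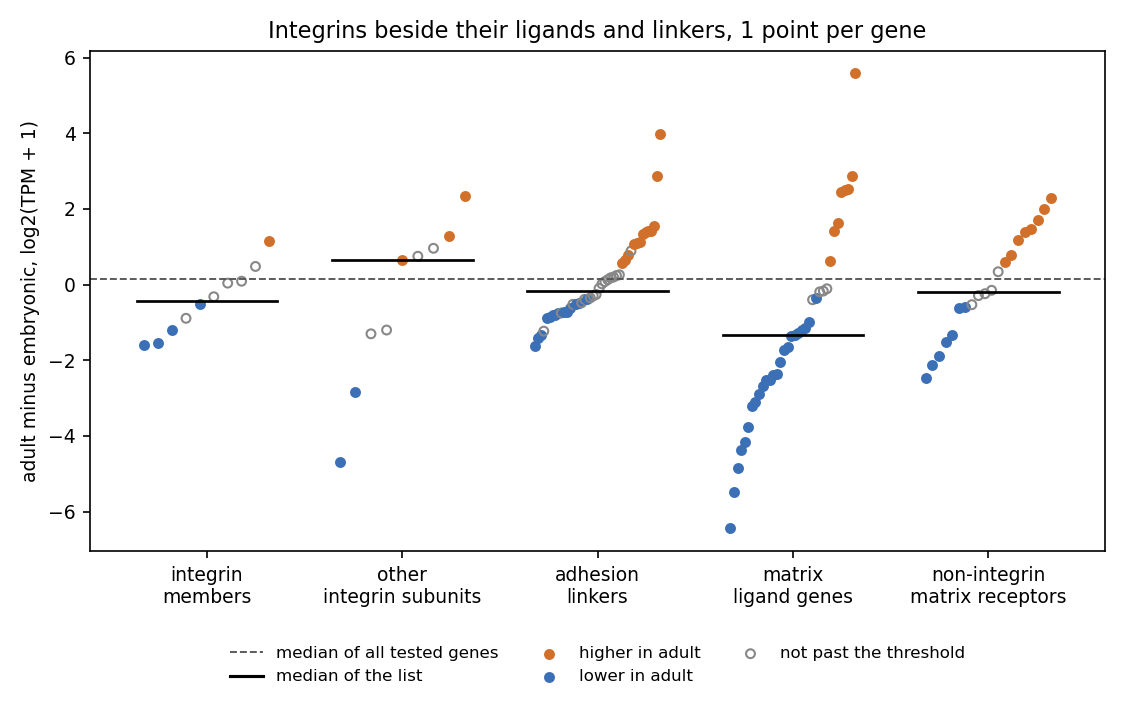
Adult minus embryonic difference on the log2(TPM + 1) scale (y axis), with 1 point per tested gene ordered within each of 5 lists, a black line at the median of the list and a dashed line at the median of all tested genes, 0.16. The matrix ligand genes have the lowest median, -1.34, and the integrin genes lie between -1.60 and 1.15.

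Genes that link integrins to the cytoskeleton were called in both directions. Of 48 such genes, called adhesion linkers in the plot of the lists, 44 were tested, with 13 called as higher and 14 as lower in adult cells and a median log2 difference of -0.18. The share called was 61.4%, against 45.3% of all tested genes, of which 23.9% were higher and 21.4% lower. *Fermt2*, encoding the kindlin that activates beta chains, fell from 451 ± 20.4 to 180 ± 28.1 TPM (log2 difference -1.33, limma adjusted p = 0.000136). *Tln1*, encoding talin, the other activator, rose from 176 ± 27.7 to 383 ± 29.6 TPM (log2 difference 1.13, limma adjusted p = 0.000407). The 2 activators of the beta chain thus changed in opposite directions.

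*Zyx*, encoding the focal adhesion protein zyxin, was measured at 714, 701 and 680 TPM in the embryonic and at 233, 271 and 187 TPM in the adult replicates (log2 difference -1.61, limma adjusted p = 6.05e-05). The actin cross-linker gene *Actn4* fell by 0.88. The largest rises were those of *Lims2*, the PINCH adaptor 2 gene (3.97), *Kank1*, a talin binding protein (2.88), *Tns3*, a tensin (1.55), and *Dab2*, an endocytic adaptor of integrins (1.43). *Kank1* was at 108, 82.1 and 103 TPM in the embryonic and at 605, 940 and 661 TPM in the adult replicates (limma adjusted p = 9.83e-06), and *Lims2* was at 0, 0.311 and 2.29 TPM against 16.5, 26.4 and 33.5 TPM (limma adjusted p = 0.000447).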

How the data were processed

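RNA was sequenced from BMPR1B+ cells of 3 embryonic and 3 adult mouse samples. The authors aligned reads to GRCm38, ran RSEM and deposited the resulting gene levels as log2(TPM + 1), with versions and filters not given in the sources used here. The labels name a Kapa mRNA-Seq kit, the methods another kit, and strand is not stated. Each deposited log2 column returned to the linear scale sums to the same total TPM, so the values carry no depth, and the read totals that the study lists were not used here. All 6 columns were used.

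Of the Ensembl identifiers, 21902 were matched to a GENCODE M21 symbol and 130 were not. Differences were fitted with limma 3.58.1 in R 4.3.3 (lmFit, eBayes with a trend, stage only) on log2(TPM + 1) for the genes whose mean reached 1 TPM, after a test on simulated data. EBSeq, named in the methods, needs counts and was not used. Shares and ratios were compared by exact two-sided permutation over samples. Upstream sequences came from RefSeq.

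Same-numbered samples of the stages did not deviate together (correlations of -0.00884, -0.0169 and -0.0223), so no block was fitted in the main comparison. The integrin genes and all lists were chosen with earlier results of these data known. Named were all 10 integrin genes, the other subunits that were tested, and up to 4 called genes with the largest rise and fall in each further list, of which 1 is not reported here. *Tln1*, *Col2a1*, *Col1a1*, *Itgb2*, *Ddr1* and the named marker genes were added after their values were seen. Other settings tried were pseudocount 0.1, the filter removed or raised to 5 TPM, quantile normalization, the median of ratios, rescaling with the 20 highest genes removed, eBayes run robustly or with no trend, a replicate block, a threshold of 0.01 and leaving out every sample singly.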

Additional observations from a re-analysis of the deposited data

How the results depend on the processing

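*Itga5*, *Itga6*, *Itga10*, *Itga11* and *Itgb1* kept their direction and passed the threshold under all 16 alternatives, with log2 differences of -1.36 to -1.08, -1.74 to -1.45, 0.94 to 1.31, -1.76 to -1.29 and -0.66 to -0.37. With 1 sample left out, 5 to 6 of the 10 integrin genes were called. *Itgb3* was called only without adult replicate 3 (-1.61). *Itgb5* was called under quantile normalization (0.57) and without the 20 highest genes (0.58), which raised the count of integrin genes called as higher from 1 to 2. The difference of *Itga2* turned to -0.03 under quantile normalization, -0.02 under the median of ratios and -0.08 without adult replicate 3 (-0.08 to 0.22 with any 1 sample left out), and it was not fitted at a mean of at least 5 TPM. That of *Itgav* turned to -0.10 under the median of ratios and -0.09 without adult replicate 2 (-0.09 to 0.14 with any 1 left out). None of these was called.

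Of the other subunits 5 were called, but 2 with no filter, 3 without the trend, 2 at an adjusted p under 0.01 and 2 to 4 with 1 sample left out. At that threshold 3718 of all genes were called instead of 5949. The count of linker genes called as lower was 14, but 8 with no filter and 9 at an adjusted p under 0.01 or without embryonic replicate 1, and that of ligand genes called as higher was 8, but 5 with no filter. The causes were not tested. The replicate numbers share only a number, and with a replicate block 5 integrin genes, 5 other subunits and 5430 of all genes were called, *Itga2b* among them (adjusted p = 0.0495) and *Itgb8* not (0.0598). With 3 samples per stage and no depth in TPM, genes at a few TPM such as *Itga2* are the least certain.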

Other observations

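Receptors for the matrix that are not integrins were also measured. All 20 listed genes were tested, with 8 called as higher and 7 as lower in adult cells, and their median log2 difference was -0.19. The share called was 75%, against 45.3% of all tested genes, of which 23.9% were higher and 21.4% lower. The tetraspanins *Cd151* and *Cd82*, membrane proteins that associate with integrins, rose from 19 ± 4.26 to 97.1 ± 16 TPM (SD, n = 3; log2 difference 2.30, limma adjusted p = 8.57e-05) and from 92.3 ± 9.98 to 308 ± 54.1 TPM (1.72, limma adjusted p = 7.63e-05). *Ddr2*, a receptor tyrosine kinase for fibrillar collagens, stood at 132, 123 and 120 TPM in the embryonic and 381, 315 and 344 TPM in the adult replicates (1.46, limma adjusted p = 4.21e-05). *Ddr1*, the other discoidin domain collagen receptor, was called as lower, at 41.9, 35.3 and 41.2 TPM against 28.3, 24.2 and 24 TPM (-0.61, limma adjusted p = 0.0289). That call was lost under 7 alternatives, where the adjusted p was 0.0963 without embryonic replicate 1, 0.0913 without embryonic replicate 3, 0.0662 without adult replicate 2 and 0.054 without adult replicate 3. *Lrp1*, an endocytic receptor, rose by 1.99.

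The hyaluronan receptor gene *Cd44* stood at 773, 859 and 844 TPM in the embryonic and 317, 253 and 304 TPM in the adult replicates (log2 difference -1.51, limma adjusted p = 3.82e-05). *Sdc1*, encoding the heparan sulfate proteoglycan syndecan 1, fell by 2.12, *Mrc2*, encoding a collagen uptake receptor, by 1.88 and *Hmmr*, a hyaluronan binding protein also known from the mitotic spindle, by 2.46. Apart from *Ddr1*, none of these genes changed its call under the alternatives.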
